A study of Mus musculus with 4 samples.

Results

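B cells of mouse lung tumors were examined in 1 pooled single-cell RNA-seq matrix. They were chosen by their own transcripts: a cell was taken as a B cell when it had at least 3 unique molecular identifiers (UMIs, each standing for 1 captured RNA molecule) over Cd79a, Cd79b and Ms4a1, at least 1 of them from Cd79a, none from Cd3d, Cd3e or Cd3g, and at most 2 from the C1q genes and from Siglech. Of the 20351 cells in the matrix, 19892 had at least 200 detected genes and at most 13.4% mitochondrial UMIs, and 1680 of these met the rule. B cells thus made up 8.45% of the kept cells (95% interval 8.06 to 8.84).

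The cells came from microdissected lung tumors of 4 female mice. All 4 carried Lkb1XTR/XTR, with which Cre turns off Lkb1 (named Stk11 in the matrix) and FLPo turns it back on. At the Rosa26 locus the 2 Restored mice had Rosa26LSL-tdTomato/FLPo-ERT2, which pairs a Cre-activated tdTomato reporter with a tamoxifen-activated recombinase, while the 2 Non-Restored mice had Rosa26LSL-tdTomato without that recombinase. Tumors were started in mice aged 6 to 12 weeks with an intratracheal lentivirus carrying Cre, meant for lung epithelial cells rather than lymphocytes. The tumors were collected after 16 weeks, the last 2 of these weeks under 4 mg doses of tamoxifen. Viable cells were sorted with DAPI as the only stain, so no B cell marker was used to collect them. No file used here maps a cell to a mouse. Restored and Non-Restored B cells could therefore not be compared, all cells count as 1 sample without replicates, and no test was run. Intervals cover counting error only, and a difference between groups of B cells cannot be told apart from unequal shares of the 4 mice in those groups.

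B cells recognise antigen through the B cell receptor, a membrane immunoglobulin held by the signaling chains CD79A and CD79B. Naive B cells carry immunoglobulin M and D on their surface and circulate through follicles. After antigen contact they may enter a germinal center, where immunoglobulin genes mutate and may switch class from IgM to IgG, IgA or IgE, and some become memory cells or plasma cells that secrete antibody. In lung tumors B cells are often found in lymphoid aggregates.

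The B cells were shallow, with 629.5 genes and 1451 UMIs in the median cell and a range of 522 to 40755 UMIs. T cells, taken as cells with at least 3 Cd3 UMIs and none from the B cell genes, numbered 2355 with a median of 1806 UMIs. C1q macrophages, with at least 10 C1q UMIs and none from the B cell or Cd3 genes, numbered 2110 with a median of 4366 UMIs. These groups served as a lymphocyte and an antigen-presenting comparison. At the edge of the rule, 292 B cells had exactly 3 UMIs over Cd79a, Cd79b and Ms4a1, and 226 cells with 2 such UMIs lay just outside it. A further 53 cells reached 3 UMIs without any from Cd79a, 67 were left out for a Cd3 UMI, 20 for C1q UMIs and 4 for Siglech UMIs.

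Because Cd79a, Cd79b and Ms4a1 chose the cells, their levels describe the choice and are no finding. Cd79a had a median of 3 UMIs per B cell (1 to 24), Cd79b a median of 1 (0 to 14) and Ms4a1 a median of 1 (0 to 14). Ebf1 (ENSMUSG00000057098, mm10 chromosome 11, 44617317 to 45008091, plus strand), which encodes a transcription factor that commits progenitors to the B lineage, was not part of the rule. Ebf1 UMIs were present in 1436 of the 1680 B cells, or 85.5%. With all cells thinned to the same 1000 UMIs, 72.3% of 1474 B cells (70.0 to 74.6) had an Ebf1 UMI, against 0.0443% of 2255 T cells (0.00112 to 0.247) and 0 of 2104 macrophages, which allows a share of up to 0.175%. Most of the chosen cells thus had a marker of the B lineage that had no part in the choice. Both comparison gates had left out cells with a UMI of Cd79a, Cd79b or Ms4a1. The 13747 kept cells outside these groups were not compared for Ebf1. Thinning left out 206 shallower B cells, and the unthinned Ebf1 shares of T cells and macrophages were 0.297% and 0.521%.

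Across genes, B cells differed from T cells first in the B lineage program. Levels are given as CPM, a gene's UMIs scaled to 1000000 UMIs of its group, and a gene was counted as higher or lower when log2(CPM + 10) differed by at least 2-fold, among genes at 50 CPM or more in either group. Of 2652 genes, 227 (8.56%) were higher in B cells and 263 (9.92%) were lower, 18.5% in either direction. All 12 tested genes of the B cell identity list were higher, with a median log2 difference of 3.79 against -0.11 over all tested genes. The list held genes chosen as B cell markers, so its direction carries no separate evidence.

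Among the transcription factors, Ebf1 stood at 1260 CPM in B cells (1222 to 1299) and at 1.35 in T cells. Pax5, which holds B cell identity in place, was at 146 CPM with 0 UMIs in T cells, at least 253-fold higher when 3 UMIs over the group set the floor. Spib was at 95.7 CPM and likewise without a T cell UMI, at least 165-fold higher. These factors were absent or nearly absent from the T cell gate, while 15 of 20 tested B lineage factors were higher and none was lower.

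Surface and signaling genes of the receptor complex followed the same pattern. Blnk, the adaptor that links the kinase SYK to its targets, was at 130 CPM against 0.771, and Btk, a kinase of the same cascade, was at 67.8 against 2.31. Syk itself was at 241 against 12.9 CPM. In all, 11 of 15 tested receptor signaling genes were higher and none was lower. Inhibitory receptors also stood out, with 8 of 9 tested genes higher and 1 lower; Siglecg, a sialic acid receptor that dampens calcium signaling, was at 142 CPM against 1.73. Fcmr, the receptor for secreted IgM, reached 319 CPM without a UMI in T cells, at least 551-fold higher.

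The promoter of Cd22, which encodes another inhibitory sialic acid receptor, is shown because it alone among the promoters of the B cell identity genes held the palindromic motif bound by EBF1, read here as TCCC, any 2 bases and GGGA. Cd22 was at 70.0 CPM in B cells and at 1.73 in T cells. The 250 bases before its start, from the RefSeq table of GRCm38.p6 at chr7:30879029-30879278 on the minus strand, are printed 5′ to 3′ with the match in capitals.
Cd22 promoter: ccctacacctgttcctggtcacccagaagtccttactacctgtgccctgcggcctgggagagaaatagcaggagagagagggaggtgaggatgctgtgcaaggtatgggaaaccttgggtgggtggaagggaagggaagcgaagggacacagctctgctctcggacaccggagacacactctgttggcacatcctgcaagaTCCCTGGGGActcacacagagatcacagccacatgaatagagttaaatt
The motif reads the same on both strands. It was found in 297 of 32851 promoters in the table, or 0.904%, counting 250 bases before and 50 after each start. Of the 15 identity genes, 10 had a promoter there (12 promoters), and 1 held the motif. The match is a description of these letters and was not tested as a binding site.

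Single receptors of follicular homing and survival were higher in B cells, but their lists were split. Of 13 tested migration receptors 2 were higher than in T cells and 4 lower, and of 7 survival and BAFF receptor genes 2 were higher and 3 lower, with a median of -0.83. Cxcr5, the receptor that guides B cells toward the chemokine CXCL13, was at 88.9 CPM against 2.51 in T cells. Tnfrsf13c, the receptor for the survival factor BAFF, was at 94.1 against 1.35 CPM, and Cr2, a complement receptor, was at 73.7 against 0.385. Ccr7, used by both lymphocyte types to enter lymphoid tissue, was at 390 CPM in B cells and at 153 in T cells, a log2 ratio of 1.35 (1.22 to 1.48). Of 12 tested naive or follicular genes 10 were higher and none lower. In the opposite direction, Il7r, the receptor for a T cell survival cytokine, was at 4.64 CPM in B cells and at 703 in T cells, and Bcl2, an inhibitor of cell death, was at 79.9 against 206.

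**Figure D1:**
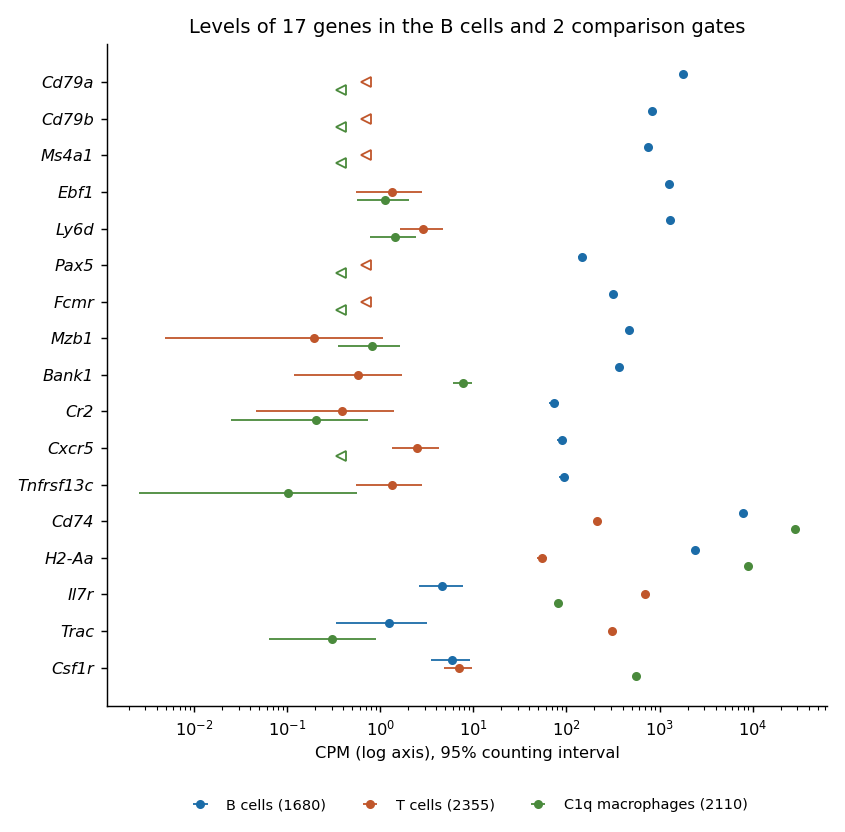
Levels of 17 genes in CPM (log axis) in the 1680 B cells, 2355 T cells and 2110 C1q macrophages; points are summed levels, bars are exact 95% counting intervals and open triangles mark the upper bound where a group had 0 UMIs. Ebf1 stands at 1260 in B cells and near 1 in both other groups, whereas H2-Aa and Cd74 are highest in the macrophages.

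Antigen presentation genes placed B cells between T cells and macrophages. MHC class II molecules present peptides to CD4+ T cells, and Cd74 encodes the invariant chain that guards their groove. Cd74 was at 7813 CPM in B cells, 212 in T cells and 28176 in C1q macrophages. H2-Aa, a class II alpha chain, followed the same order at 2410, 54.7 and 8896 CPM. Against T cells 13 of 15 tested presentation genes were higher and none was lower. Against macrophages, where 333 of 2985 genes (11.2%) were higher in B cells and 670 (22.4%) lower, 33.6% in either direction, 9 of 16 presentation genes were lower and 2 were higher. H2-Ob, a chain of the H2-O complex that restrains peptide loading, was one of those higher in B cells, at 247 CPM against 12.9 (log2 ratio 4.25, 3.98 to 4.54). The invariant chain and the classical class II chains were therefore higher in macrophages, and a modulator of loading was higher in B cells.

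The largest differences from macrophages outside the B lineage genes included Plac8 (498 CPM against 4.89), Cd55, which protects cells from complement (317 against 0.306), and Ptprcap, a partner of the phosphatase CD45 (318 against 1.32). Fcgr2b, the inhibitory IgG receptor shared by B cells and myeloid cells, was lower in B cells at 94.4 CPM against 630 (log2 ratio -2.74, -2.91 to -2.57). Ligands of the B cell homing and survival receptors were higher in the macrophage gate than in B cells. Cxcl13 was at 185 CPM there and at 1.86 in B cells. Tnfsf13b, encoding BAFF, was at 55.6 CPM there and at 1.24 in B cells. Their levels in the 13747 kept cells outside the B cell, T cell and macrophage groups are not given, so no source is named.

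Activation genes were split. Of 18 tested early activation genes, 6 were higher in B cells than in T cells and 5 were lower. Cd83, which stabilises class II on the surface, was at 336 CPM against 35.8, and Myc, a growth regulator, at 192 against 34.9. Nfkbia, the inhibitor of NF-kB, was lower at 209 against 800. Cell-cycle genes were low: Mki67 had 52 UMIs in 17 B cells, 16.1 CPM against 70.0 in T cells, and 5 of 7 tested cell-cycle genes were lower with none higher. Of the Toll-like receptors, Tlr7 had 35 UMIs and Tlr9 had 1 UMI over all B cells.

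The B cells were then divided by heavy-chain class and by genes of the naive, germinal-center and plasma states, with the gates set on raw UMIs. Naive-like cells had an Ighd UMI, a UMI of any of 4 naive genes (Fcer2a, Ccr7 and Cr2 among them), and fewer switched-class than IgM and IgD UMIs; they numbered 615, or 36.6% (34.3 to 39.0). Plasma-like cells, with at least 5 Jchain UMIs and at least 2 of 6 plasma genes (Mzb1, Xbp1, Sdc1, Prdm1, Tnfrsf17 and Eaf2), numbered 37, or 2.20% (1.56 to 3.02). Class-switched cells, without Ighd and with at least 3 switched-class UMIs that outnumbered Ighm, numbered 24, or 1.43% (0.917 to 2.12). A germinal-center-like cell needed 2 of 6 genes (S1pr2, Rgs13, Mybl1, Gcsam and Nuggc among them), and 1 cell met this, or 0.0595% (0.00151 to 0.331). Another 335 cells (19.9%) had at least 3 Ighm UMIs and no Ighd UMI; this class was added after the values were seen. The remaining 668 cells had too few UMIs of these genes for a class, 330 of them with 1 or 2 Ighm UMIs and no Ighd, 184 with Ighd but without a UMI of the listed naive genes, and 154 with neither.

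The same gates applied to the other cell groups give their background. The plasma gate took 0 of 2355 T cells and 0 of 2110 macrophages, which allow shares of up to 0.157% and 0.175%. The naive gate took 1 cell of each group. The class-switched gate took no T cell but 16 macrophages, or 0.758% (0.434 to 1.23) at a median depth of 4366 UMIs, an interval that overlaps that of the B cells. The germinal-center gate took 1 macrophage, so its single B cell was at the level of background.

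Naive-like cells were the largest class but depended on depth, since Ighd and the listed receptors gave few UMIs per cell. Ighd had a median of 1 UMI (1 to 6) in naive-like cells, and Ighm a median of 2 (0 to 21). In these cells 57.7% of the heavy-chain constant UMIs were Ighm and 41.7% were Ighd. After thinning to 1000 UMIs before the gate the naive-like share was 24.6%, and after thinning to 500 it was 9.35%, so the share moved with depth. Immunoglobulin genes made up a median of 0.973% of a naive-like cell's UMIs (0.0172 to 3.19).

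Germinal-center transcripts were close to absent across all 1680 B cells. Rgs13 had 6 in 4 cells, S1pr2 had 9 in 7 cells, Mybl1 and Nuggc had 6 each and Gcsam had 1. Bcl6, the repressor that directs the germinal-center program, had 41 UMIs in 38 cells, 12.7 CPM (9.11 to 17.2), against 5.20 in T cells. In contrast Gpr183, a receptor that germinal-center B cells switch off, was at 517 CPM, and Cd38, which mouse germinal-center B cells reduce, was at 91.3. Precursor genes were also missing, with 0 UMIs of Rag1, Rag2, Vpreb1, Dntt and Igll1. These are 5 of the 11 genes of the immature or transitional list. Others on it were found, with a UMI of Cd24a in 23.4%, Ms4a4c in 19.5% and Vpreb3 in 17.6% of B cells. All 3 tested genes of the list were higher than in T cells (summed list level 478 against 55.5 CPM). The depth limits these statements to transcripts that would give UMIs in cells of about 1451 UMIs.

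IgM-positive cells without an Ighd UMI were set beside naive-like cells, which by their gate had IgD. To keep other cell types out, cells with at least 4 UMIs over 36 markers of other lineages were left out of this comparison, which left 312 and 577 cells. Of 2479 tested genes, 57 (2.30%) were higher and 23 (0.928%) lower, 3.23% in either direction. S100a6, a calcium-binding protein of the S100 family, led the difference at 3728 CPM against 262 (log2 ratio 3.83, 3.64 to 4.03). Bhlhe41, a transcription factor known from B-1 cells, was at 54.4 against 4.29 CPM, Zbtb32, a repressor found in memory B cells, at 57.3 against 6.44, and Fcrl5, an Fc receptor-like inhibitor, at 54.4 against 7.51. Satb1, a chromatin organiser, was lower at 121 against 356, as was Cxcr4, a chemokine receptor, at 69.1 against 167. None of the 12 tested identity genes passed the 2-fold line in either direction, and neither did any of 8 naive or follicular genes. Memory genes were higher in 3 of 6 tested and marginal zone or B-1 genes in 3 of 6, with none lower in either list. Of the C1q macrophage list, 1 of 2 tested genes was higher as well (summed list level 401 against 239 CPM). With the cells that carried at least 4 other-lineage UMIs kept, 46 genes were higher and 55 lower. The IgM-positive cells were deeper, with a median of 1927.5 UMIs against 1451. The gate behind this class took 11 T cells (0.467%) and 43 macrophages (2.04%).

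S100a6 itself was unevenly spread. Among 1537 B cells that were not plasma-like and had fewer than 4 other-lineage UMIs, 1276 had 0 S100a6 UMIs, 139 had 1 to 4, 36 had 5 to 9 and 86 had 10 or more, of which 48 had at least 21. At 1000 UMIs per cell 1138 of 1340 cells had none, 127 had 1 to 4 and 75 had 5 or more. By variance over mean at that depth S100a6 (10.2) and Lyz2 (10.2) ranked highest among the genes outside the immunoglobulins, followed by Gm42418 (6.60) and Malat1 (5.85). Lyz2 is on the C1q macrophage list, as is Apoe, which ranked 8 (3.67), so genes of that list still varied among these cells. S100a6 lies on mm10 chromosome 3 at 90612882 to 90624181 on the plus strand, and stood at 3012 CPM in T cells and 3261 in macrophages, above the 1272 of all B cells.

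**Figure D2:**
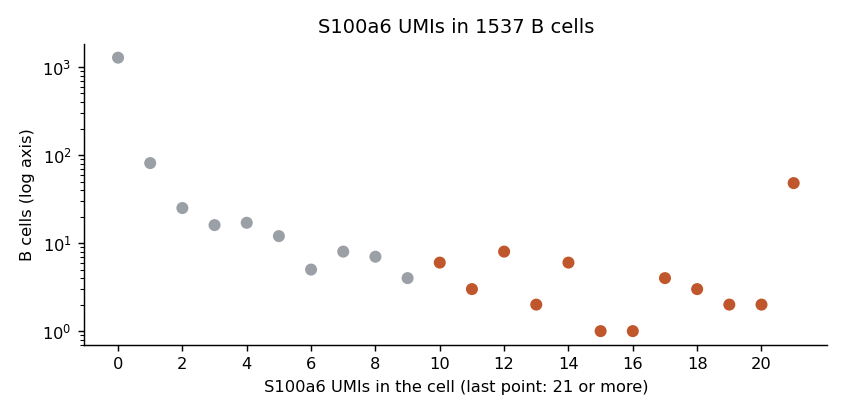
Number of B cells (log axis) by S100a6 UMIs per cell, for 1537 B cells that were not plasma-like and had fewer than 4 other-lineage UMIs; orange points mark the 86 cells with 10 or more, and the last point collects 48 cells with at least 21. Most cells had none (1276), and no count between 5 and 20 UMIs was reached by more than 12 cells.

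The 86 cells with at least 10 S100a6 UMIs were described beside the 1276 cells with none; both the gene and the limit were chosen after the values were seen, and S100a6 was left out of the counts. At the limit, 11 cells had 8 or 9 UMIs and 9 cells had 10 or 11. Of the 86 cells 70 were IgM-positive without IgD, 7 were naive-like, 3 were class-switched and 6 had no class. Their Ighm median was 9 UMIs (0 to 44), and an Ighd UMI was found in 9 cells. They were also deeper, with a median of 3034.5 UMIs against 1350.5. Of 2516 tested genes 116 (4.61%) were higher and 122 (4.85%) lower, 9.46% in either direction.

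The largest difference in the S100a6-high cells was that of Gm35019, a predicted gene, at 261 CPM against 3.73. S100a4, another S100 gene, was at 253 CPM against 5.33 (log2 ratio 5.57, 4.61 to 6.69), Lgals1, a galactose-binding lectin, at 639 against 35.2, and Crip1, a LIM-domain protein, at 10070 against 2067. Vim, the intermediate filament vimentin, was at 1756 against 384. Zbtb32 (mm10 chromosome 7, 30589681 to 30598909, minus strand) was at 111 against 5.33 CPM (log2 ratio 4.38, 3.31 to 5.57), with a UMI in 26 of the 86 cells and in 8 of the 1276. Ccnd2, a cyclin of the G1 phase, was at 585 against 64.5, although none of the 86 cells had an Mki67 UMI. Plac8 was at 1164 against 435, Itgb1, an integrin chain, at 196 against 29.3, and Fgl2, a secreted regulator, at 104 against 2.13.

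Several genes were lower in these cells, some of them known from follicular B cells. Fcer2a, the low-affinity IgE receptor, was at 10.7 CPM against 233 (log2 ratio -4.44, -6.73 to -2.89), and Cr2 at 3.57 against 106. Vpreb3, a chaperone of the light chain from the immature or transitional list, was at 14.3 against 175. Neurl3, a ubiquitin ligase, had 0 UMIs against 124 CPM, at least 11.6-fold lower. Ccr7 was at 125 against 544 and Bach2, a repressor of plasma cell fate, at 21.4 against 106. Of the B cell lists, 5 of 12 naive or follicular genes were lower and none higher, 4 of 7 marginal zone or B-1 genes were higher and 1 lower, 3 of 7 memory genes were higher, and 3 of 4 genes of the atypical or age-associated list were higher. Of 3 tested genes of the immature or transitional list 2 were lower and none higher (summed list level 200 against 551 CPM). All 12 identity genes stayed within 2-fold. Lists of other cell types were counted too. The 1 tested T cell gene was higher (summed list level 435 against 228 CPM), as was 1 of 2 tested C1q macrophage genes (296 against 196). The T cell list includes Cd2, which had a UMI in 28.0% of all B cells. The 3 T cell markers of the other-lineage list had 1 UMI in the S100a6-high cells. The NK list stood at 28.6 against 4.80 CPM, from 8 against 9 UMIs. The part of these lists in the difference was not tested. With cells of 4 or more other-lineage UMIs kept, 287 genes were higher and 128 lower, and with at least 5 S100a6 UMIs in cells thinned to 1000 UMIs, 343 were higher and 247 lower. Cd5, which marks B-1a cells, had 0 UMIs in both groups and 3 in all B cells, so neither a memory nor a B-1 name was given to these cells.

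**Figure D3:**
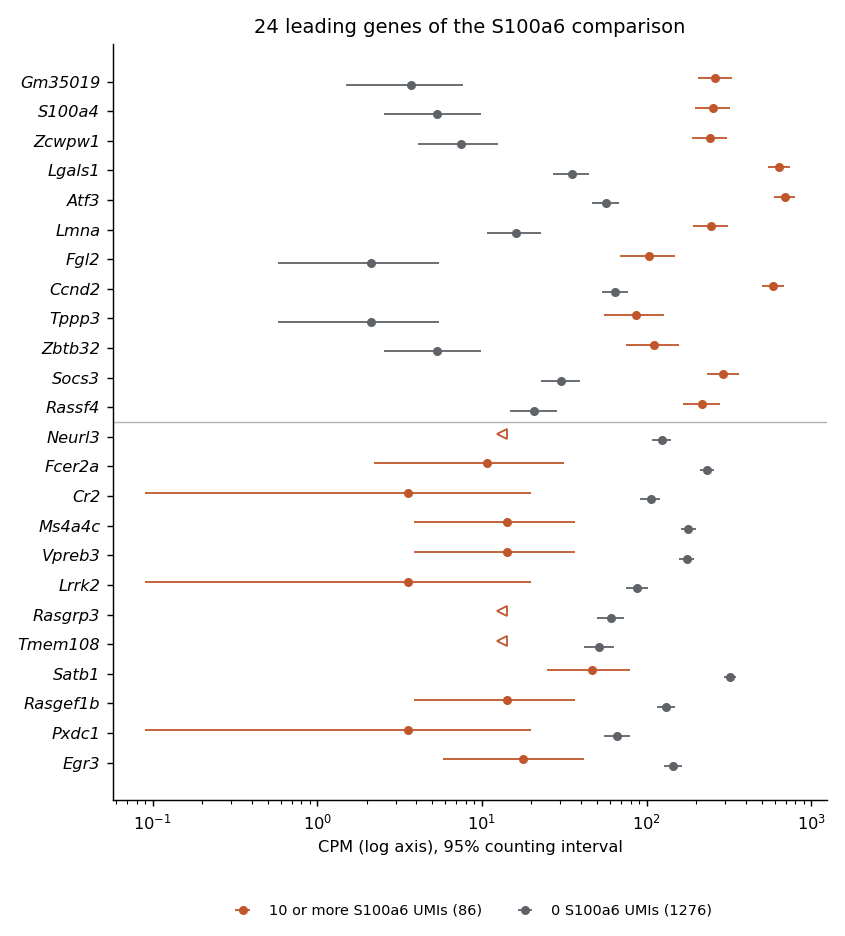
Levels in CPM (log axis) of the 12 genes with the largest difference in each direction between the 86 S100a6-high cells (orange) and the 1276 cells with no S100a6 UMI (grey); bars are exact 95% counting intervals and open triangles are upper bounds at 0 UMIs. S100a4 stands at 253 against 5.33 among the genes above the line, and Fcer2a at 10.7 against 233 among those below it.

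The tdTomato transcript moved with these groups. At 1000 UMIs per cell TdTomato was found in 14.0% of the S100a6-high cells (7.42 to 23.1) and in 6.86% of cells without S100a6 (5.44 to 8.53), and in 15.9% of IgM-positive cells without IgD (49 of 309) against 6.57% of naive-like cells (37 of 563). The unthinned shares were 36.0%, 9.01%, 25.7% and 9.59%. Over all B cells the thinned share was 9.70%, against 14.5% in T cells and 9.08% in macrophages, groups that the Cre virus was not meant to reach. Sftpc, a surfactant gene of epithelial cells, was found in 1.16% of the S100a6-high cells (0.0294 to 6.31) against 4.57% (3.41 to 5.99). Cells with at least 4 other-lineage UMIs, epithelial markers included, had been left out of both S100a6 groups, which limits these Sftpc shares. Without thinning, 10.5% of the S100a6-high cells had a UMI of the 4 epithelial markers. The part of free RNA or of other cells in the S100a6 difference was not tested, and unequal shares of the mice cannot be told apart from it.

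Class-switched cells were few, and their 24 cells gave 82702 UMIs in all. Igha led in 13 of them, Ighg1 in 6, Ighg2b in 4 and Ighg3 in 1. Of 2796 genes tested against naive-like cells 264 (9.44%) were higher and 286 (10.2%) lower, 19.7% in either direction. S100a6 was also among the leading genes, at 1874 CPM against 309 (log2 ratio 2.60, 2.32 to 2.88). It had a UMI in 13 of the 24 cells, with a median of 1 UMI and 73 in the highest cell. The interval does not cover this spread among cells, and cells with other-lineage UMIs were kept here. Pou2af1, a coactivator of immunoglobulin genes, was at 326 against 105 CPM, and Zbtb20, a zinc-finger repressor linked to memory and plasma cells, at 496 against 126. Foxp1, a factor of mature naive B cells, was lower at 145 against 599, and Fcmr at 84.6 against 367. Cd80, a costimulatory ligand used as a memory marker, had 6 UMIs against 8, or 72.5 against 7.23 CPM. Of 8 tested naive genes 6 were lower and none higher, and of 7 memory genes 4 were higher and 1 lower. Markers of other cell types differed between these groups. All 6 tested alveolar epithelial genes were lower in class-switched cells (109 against 5083 CPM). All 3 tested neutrophil genes were higher (1403 against 176), as were 2 of 3 C1q macrophage genes (1511 against 969). Over the other-lineage markers, 1 class-switched cell held 97 of 103 neutrophil UMIs, and 1 naive-like cell held 4599 of 5178 epithelial UMIs. The 4 C1q macrophage markers had 0 UMIs in class-switched cells and 34 in naive-like cells. Epithelial genes such as Sftpc and Sftpb led the lower genes, and most Sftpc UMIs of B cells lay in 4 cells. At least 4 other-lineage UMIs were found in 4 of the 24 class-switched cells (16.7%) and in 38 of 615 naive-like cells (6.18%), while the summed level was 2781 CPM against 5853. The class-switched cells were also deeper, with a median of 3100 UMIs against 1466. When each cell weighed equally, 438 genes were higher and 258 lower.

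Plasma-like cells were the most distinct class. They had a median of 6502 UMIs (1977 to 15824), and immunoglobulin genes took a median of 41.8% of these (1.72 to 74.8). Jchain (mm10 chromosome 5, 88519809 to 88527891, minus strand), which joins IgM and IgA into polymers and was part of the gate, ranged from 5 to 995 UMIs with a median of 201, and the highest count in any other B cell was 6. Igkc had a median of 1592 UMIs (15 to 6564). The rule for B cells missed part of this class: 56 kept cells met the plasma gate, and of the 19 outside the rule 14 had fewer than 3 UMIs over Cd79a, Cd79b and Ms4a1, 4 had no Cd79a and 4 had a Cd3 UMI, with some failing on more than 1 count.

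Secretory genes were higher in plasma-like cells and B cell receptor and follicular genes lower. With gate and immunoglobulin genes left out, 169 of 2483 genes (6.81%) were higher and 1216 (49.0%) lower, 55.8% in either direction, with a median difference of -0.97. When immunoglobulin UMIs were also left out of the totals, 468 of 2812 genes were higher and 689 lower, and the median was -0.17, so directions are given relative to these shifts. Of the 13 tested plasma genes 12 were higher on the first scale and all 13 on the second. Derl3, which serves the removal of misfolded proteins, was at 180 CPM against 0.673 (log2 ratio 8.06, 6.13 to 11.15). Txndc5, a disulfide isomerase, was at 1039 against 55.5, Hsp90b1, a chaperone of the endoplasmic reticulum, at 2600 against 227, and Ssr4, a subunit of the translocon, at 2179 against 198. Ly6c2, a surface protein of mouse plasma cells, was at 656 against 17.8.

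Of the B cell genes, Pax5 was at 3.90 CPM in plasma-like cells against 158 in the other B cells, Ebf1 at 137 against 1357 and Ciita, the master regulator of class II genes, had 0 UMIs against 109 CPM, at least 9.33-fold lower. H2-Aa was at 125 against 2607 (log2 ratio -4.38, -4.93 to -3.88), while Cd74 was at 2554 against 8266. B2m, the light chain of class I, was higher at 2171 against 949. In the presentation list 12 of 15 genes were lower and 1 higher, or 11 and 1 with immunoglobulin left out of the totals. Ccr7 had 0 UMIs in the 37 cells against 423 CPM, at least 36.1-fold lower, and S1pr1, a receptor for exit from lymphoid tissue, was at 23.4 against 232. Not all B cell genes were low: Blnk was at 141 against 129, Ly6d at 1167 against 1294 and Pou2af1 at 203 against 115. Cell-cycle genes were higher in 6 of 8 tested, and in 8 of 9 on the second scale. Mki67 was at 113 against 7.74 CPM, and 10 of the 17 B cells with an Mki67 UMI were plasma-like.

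Slpi, a secreted protease inhibitor, had the largest difference of log2(CPM + 10), at 5872 CPM against 66.6. A single cell held 34.0% of all B cell Slpi UMIs, with 579 UMIs, and 24 of the 37 plasma-like cells had at least 1. By class, Slpi was found in 7 of 7 cells led by Ighg2c (median 37 UMIs) and in 9 of 21 led by Igha (median 0). It was also found in 3 of 3 cells led by Ighg1 (median 7) and in 4 of 5 led by Ighm (median 14). The cell with 579 UMIs was the only 1 led by Ighg2b.

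**Figure D4:**
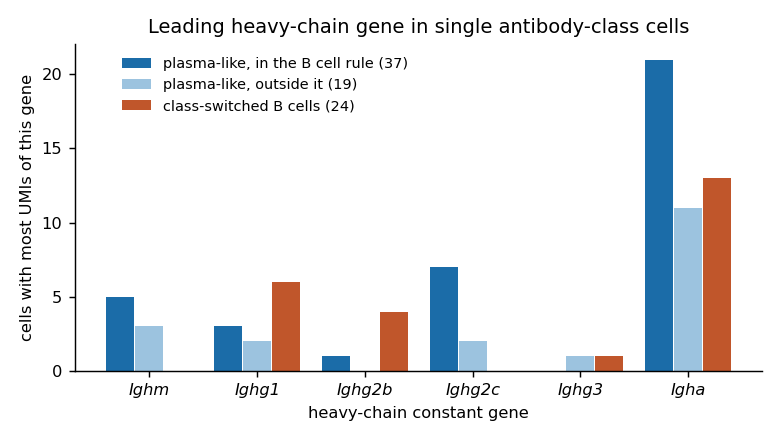
Number of cells in which each heavy-chain constant gene had the most UMIs, for 37 plasma-like cells within the B cell rule, 19 plasma-like cells outside it and 24 class-switched B cells. Igha led in 21, 11 and 13 cells of these groups, and Ighg2c led in 7 plasma-like cells but in no class-switched cell.

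IgA was the leading class of the plasma-like cells. Igha led in 21 of the 37 cells, Ighg2c in 7, Ighm in 5, Ighg1 in 3 and Ighg2b in 1. Outside the rule the order was similar, with Igha leading in 11 of 19 cells, Ighm in 3, Ighg1 and Ighg2c in 2 each and Ighg3 in 1. Igha UMIs had a median of 181 in plasma-like cells (0 to 1286). Ccr10, a receptor that draws IgA plasma cells to mucosal surfaces, was found in 16 of the 21 cells led by Igha. It was also found in 2 of 3 cells led by Ighg1 and in 3 of 7 led by Ighg2c. None of the 5 cells led by Ighm had a Ccr10 UMI, nor did the 1 led by Ighg2b. In total 33 of the 34 Ccr10 UMIs of all B cells were in plasma-like cells. The IgG genes lie next to each other on chromosome 12 and share sequence, so reads could be split among them.

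Variable segments were read where a cell had at least 2 UMIs of a segment. Both a heavy and a light segment could be read in 26 plasma-like cells, with 21 distinct pairs. The pair Ighv1-5 with Igkv3-1 occurred in 6 cells, all led by Ighg2c, and no other pair occurred in more than 1 cell. The 6 cells had 70 to 445 Igkv3-1 UMIs (median 115) and 7 to 27 Ighv1-5 UMIs (median 14.5). In any other B cell the highest count was 5 for Igkv3-1 and 7 for Ighv1-5. Of 11 plasma-like cells outside the rule with both segments read, 1 had the same pair and was also led by Ighg2c. The junction sequences that would show a shared ancestor are not in gene counts, and variable segments resemble each other, so the pair is reported as a count only. In B cells that were not plasma-like, a kappa segment could be read in 291 cells and 59 segments were seen, with Igkv1-135 leading in 27 cells.

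Light-chain use could be called in 1595 B cells, those with at least 3 UMIs over Igkc and the lambda constant genes, against 5 T cells and 8 macrophages. Kappa made up at least 80% of these UMIs in 950 cells, or 59.6% (57.1 to 62.0), lambda in 54 cells, or 3.39% (2.55 to 4.39), and 591 cells (37.1%) lay between. The intermediate cells held a mean of 8.01 Igkc and 4.74 lambda constant UMIs, 3.35 of them from Iglc2. Their variable segments were closer to those of kappa cells than of lambda cells. An Igkv UMI was found in 50.1%, against 54.9% of kappa and 9.26% of lambda cells. An Iglv UMI was found in 5.25%, against 4.42% and 61.1%. Of the 42 kappa cells with an Iglv UMI, however, 31 were plasma-like. Among naive-like cells, 3.69% of intermediate, 1.14% of kappa and 72.2% of lambda cells had an Iglv UMI. Among IgM-positive cells without IgD these shares were 6.76%, 1.23% and 60.0%. Within both classes the intermediate cells thus had a higher Iglv share than kappa cells. The median depth of all intermediate cells was 1527 UMIs against 1444 in kappa cells. Iglc2 and Iglc3 are nearly identical and their separate counts are uncertain. Of the plasma-like cells 36 of 37 were called kappa and none lambda, which allows a lambda share of up to 9.49%. This call rests on constant genes. Of these 36 cells 31 also had an Iglv UMI, and the 36 held a mean of 154 Igkv and 27.1 Iglv UMIs. The source of these Iglv UMIs was not tested.

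**Figure D5:**
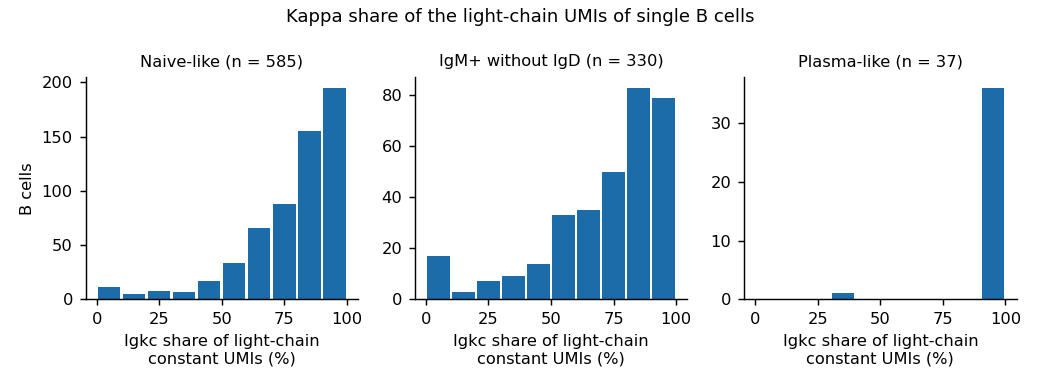
Number of B cells by the Igkc percentage of their light-chain constant UMIs, in steps of 10, for naive-like, IgM-positive IgD-negative and plasma-like cells with a call. In naive-like cells 195 lie at 90 to 100% and 66 at 60 to 70%, while 36 of 37 plasma-like cells lie at 90 to 100%.

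RNA of other cell types was present in a minority of B cells and was concentrated in very few. Of the 1680 B cells 109 (6.49%) had at least 4 UMIs over the 36 other-lineage markers, and these cells held 96.6% of such UMIs. For the epithelial markers 17 cells had 4 or more, and 1 naive-like cell had 4599. A single cell held 61.7% of the Sftpc UMIs of all B cells, another 50.9% of Mgp and another 57.7% of S100a8. T cell and NK markers reached 4 UMIs in 2 and 6 cells. C1q macrophage markers were limited by the rule and had at most 2 UMIs in a cell. The S100a6-high cells had 114 CPM of these markers (78.1 to 161) with no cell above 3 UMIs, since such cells had been left out.

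Lkb1, the gene whose restoration the mice were built for, was expressed at a low level in B cells. Stk11 (mm10 chromosome 10, 80115803 to 80130682, plus strand) had 63 UMIs in 60 of the 1680 B cells, 19.5 CPM, against 17.2 in T cells and 20.6 in C1q macrophages. The log2 ratio to T cells was 0.19 (-0.30 to 0.67), so a difference was not detectable at this depth.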

How the data were processed

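Members and gene lists were chosen with earlier results of these data known. UMI counts per gene and cell, deposited as 1 matrix of 31055 features with 58624795 UMIs, were made by the authors from Chromium 3′ v3 libraries with Cell Ranger 3.0.2 on mm10 (recovery target 8000 cells per sample). No column of another sample was used. Cells with fewer than 200 genes (52) or above the 98th percentile of the mitochondrial share (13.4%, 407 cells) were left out. The study also excluded tdTomato-positive cells outside the epithelium, which was not done here. Doublets were not called; other-lineage UMIs were counted instead, over a 36-marker list added after the values were seen.

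UMIs were summed per group and divided by the group total (CPM). Intervals are 95%: Poisson for levels, Clopper-Pearson for shares, and exact conditional for ratios. Zero counts were set at a floor of 3 UMIs over the group. For shares of cells with a UMI, cells were thinned to 1000 UMIs. The genes named are the 12 in each direction with the largest difference of log2(CPM + 10) that had 50 CPM and 20 UMIs in the higher group, the 20 that varied most, and examples of the lists; Vim and the light-chain and variable-segment genes were chosen after their values were seen. The comparison was tested on simulated data. Alternatives were other UMI limits, CPM filters, pseudocounts, depths and removal of other-lineage cells. A few genes and alleles are not reported here, although gates and lists may hold them. Coordinates are from GENCODE vM21. Python 3.11.15, numpy 2.4.6, scipy 1.17.1 and pandas 2.3.3 were used.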

Additional observations from a re-analysis of the deposited data

How the results depend on the processing

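No value in the report has a replicate, and no paired analysis was possible because no cell could be tied to a mouse. Over 91 alternatives for the class shares and gene counts, 61 stayed close to the reported value, and 30 moved. The balance of higher and lower genes turned in some of them, as given below. The B cell share was 9.58% with at least 2 and 5.41% with at least 5 UMIs of the 3 rule genes, 4.35% without cells that had 4 UMIs over the other-lineage lists, and 7.90% with the shorter marker list. Those longer lists hold genes that B cells express and removed 814 of the 1680. With them the plasma-like share was 0.924%, the naive-like share 40.1% and the class-switched share 0.462%. Thinned to 1000 UMIs, the germinal-center-like share was 0 and the naive-like share 24.6%. At 500 UMIs these were 0 and 9.35%, and the plasma-like share was 0.595%. With 1 UMI more for each required gene the germinal-center-like share was 0 and the naive-like share 7.44%. Lambda use was 4.45% with at least 5 rule UMIs.

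Filters of 10 and 100 CPM gave 919 and 265 genes past 2-fold for B against T cells, 1795 and 592 against C1q macrophages, 2368 and 211 for class-switched against naive-like cells, 3402 and 711 for plasma-like cells, 232 and 42 for IgM-positive IgD-negative cells, and 696 and 129 for S100a6-high cells, because the filter sets how many genes are tested. For S100a6-high cells the count was 415 with other-lineage cells kept (69.2% higher) and 590 with at least 5 S100a6 UMIs at 1000 UMIs per cell (58.1% higher), against 48.7% higher in the reported values. With other-lineage cells kept, IgM-positive IgD-negative cells had 45.5% of their genes higher, against 71.2%. Under the mean of the cells' own CPM, 438 genes were higher and 258 lower in class-switched cells, 62.9% against 48.0% higher in the summed values. With the longer lists that comparison gave 2265 genes and reversed S100a8 (-0.27), S100a9 (-0.86), Apoe (-1.95), Slpi (-0.49), Ccnd2 (-2.83) and Sftpc (0.55), with few class-switched cells left, and Fkbp11 (-0.67) in plasma-like cells. The shorter list reversed Sftpa1 (0.50) in class-switched cells. Of 960 values of named genes, 839 stayed close, 113 moved and 8 reversed. The longer lists gave no value against C1q macrophages, since they hold the C1q genes. The cause of the other shifts was not tested.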

Other observations

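Genes of B cell cytokines and of signals from T cells were described apart from the comparisons above. Il12a, a subunit of the cytokines IL-12 and IL-35, had 38 UMIs in B cells, 11.8 CPM, against 0.193 in T cells and 0 UMIs in C1q macrophages. Il10, an anti-inflammatory cytokine, had 16 UMIs in all B cells. Of these, 9 lay in the 37 plasma-like cells, where the level was 35.1 CPM against 2.35 in the other B cells (log2 ratio 3.90, 2.31 to 5.56). Ltb, a lymphotoxin chain that supports lymphoid tissue, was at 318 CPM in B cells and 482 in T cells. Cd40lg, the ligand by which T cells help B cells, was at 39.5 CPM in T cells and had 0 UMIs in B cells, and Il21, a cytokine of follicular helper T cells, was at 3.85 CPM in T cells.

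Of the 16 interferon response genes 3 were tested against T cells, with 1 lower and none higher; Ifi27l2a stood at 434 CPM in B cells and 1017 in T cells. GFP, which the trapped XTR allele expresses, had 3 UMIs in all B cells.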
